A study of Mus musculus with 2 samples.

Results

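Coa3, Mtg2, Fam219b, Fbxw4, Snapc5, Nupr1, Tmem273 and Prmt2 are 8 of the 55450 genes listed for these libraries. They were chosen by their summed microglial counts, which gave some of the lowest ratios of the anesthesia library over the awake library, and by how little is known of them in microglia. Microglia are the resident macrophages of the brain. The cells came from adult male C57BL/6J mice and were sorted by surface CD11b with low CD45, a gate for microglia that leaves most blood-derived myeloid cells out. In the awake group 3 mice were injected with saline, and in the anesthesia group 3 mice were injected with 100 mg/kg of the barbiturate sodium pentobarbital. Each group gave 1 library made with the 10x Chromium 3' v3 kit, in which a unique molecular identifier (UMI) marks each captured RNA molecule. Whether mice were pooled, and how long the drug acted, is not given in the sources used here.

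Neither group has a replicate, since each is 1 library, and no test was made. Intervals below are exact 95% intervals that cover counting error only, and the group cannot be told apart from anything else in which the libraries differed. The libraries held 53262885 awake and 61139016 anesthesia UMIs, and they shared 14 cell barcodes. Clustering gave 7459 awake and 8399 anesthesia microglia-like cells, and in each of their 7 clusters all 10 of the microglial markers used were seen in at least 25% of cells. These cells had a median of 5954 UMIs (awake) and 5429 UMIs (anesthesia), and a median mitochondrial share of 1.33% and 2.14%. The part of these differences in the results below was not tested.

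The 8 genes have unlike jobs. Coa3 encodes an inner-membrane protein of mitochondria that helps newly made COX1 enter cytochrome c oxidase, the last enzyme of the respiratory chain. Mtg2 encodes a GTPase that helps the large subunit of the mitochondrial ribosome mature. Snapc5 encodes the smallest subunit of SNAPc, the complex that starts transcription of small nuclear RNA genes. Fbxw4 encodes an F-box protein with WD40 repeats, a kind of adaptor that brings substrates to SCF ubiquitin ligases, and Prmt2 a protein arginine methyltransferase that also acts as a coactivator of nuclear receptors. Nupr1 encodes a small chromatin-associated protein that many cell types induce under stress, in part through the transcription factor ATF4. The proteins of Fam219b and Tmem273, the latter a predicted membrane protein, have no well-described role.

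The genes lie apart in the genome. In GRCm38 with the GENCODE M21 annotation, all 8 are protein-coding. Coa3 is on chromosome 11 (101277968 to 101279114, minus strand), Mtg2 on chromosome 2 (180070588 to 180085902, plus strand) and Prmt2 on chromosome 10 (76207222 to 76237865, minus strand). Fbxw4 is on chromosome 19 (45578254 to 45660312, minus strand), Nupr1 on chromosome 7 (126623249 to 126630861, minus strand) and Tmem273 on chromosome 14 (32785963 to 32817984, plus strand). Fam219b (57537528 to 57543184, plus strand) and Snapc5 (64179274 to 64183132, plus strand) share chromosome 9 but are 6636089 bases apart. Exons of Coa3, Fam219b and Fbxw4 overlap exons of Cntd1, Gm26631 and Gm17018 on the other strand. An exon of Prmt2 overlaps the microRNA gene Mir678 on the same strand, so its counts are uncertain to that extent.

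The promoters of the genes were read because the genes were low in the same library. RefSeq (GRCm38.p6) gave a promoter for 7 of the 8, all but Fbxw4. In the 250 bases before the RefSeq start, both strands were searched for short motifs, and the 5 promoters with a match to 1 of 4 well-known motifs are printed 5′ to 3′ on the strand of the gene, with matches in capitals. Coa3 (chr11:101278949-101279198) holds the E-box CACGTG, Mtg2 (chr2:180070343-180070592) and Prmt2 (chr10:76237866-76238115) hold the NRF1-type motif, GCGC then any base then TGCGC, Snapc5 (chr9:64179047-64179296) holds the cyclic AMP response element TGACGTCA, and Nupr1 (chr7:126625471-126625720) holds the E-box and TGATGNAA, the C/EBP-ATF response element to which ATF4 dimers bind, on its other strand.
Coa3: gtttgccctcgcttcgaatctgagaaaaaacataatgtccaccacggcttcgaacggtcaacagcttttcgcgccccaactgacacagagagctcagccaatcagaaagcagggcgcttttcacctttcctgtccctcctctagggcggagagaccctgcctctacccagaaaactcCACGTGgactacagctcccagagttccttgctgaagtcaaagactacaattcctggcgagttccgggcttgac
Mtg2: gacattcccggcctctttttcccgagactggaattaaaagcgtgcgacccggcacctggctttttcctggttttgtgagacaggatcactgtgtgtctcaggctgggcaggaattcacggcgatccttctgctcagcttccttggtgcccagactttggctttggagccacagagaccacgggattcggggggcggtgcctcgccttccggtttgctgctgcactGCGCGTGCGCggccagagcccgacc
Prmt2: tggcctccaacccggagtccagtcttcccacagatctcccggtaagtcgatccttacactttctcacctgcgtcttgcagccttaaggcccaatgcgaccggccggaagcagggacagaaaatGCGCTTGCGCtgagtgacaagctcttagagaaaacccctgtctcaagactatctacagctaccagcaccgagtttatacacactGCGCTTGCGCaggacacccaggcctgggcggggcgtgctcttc
Snapc5: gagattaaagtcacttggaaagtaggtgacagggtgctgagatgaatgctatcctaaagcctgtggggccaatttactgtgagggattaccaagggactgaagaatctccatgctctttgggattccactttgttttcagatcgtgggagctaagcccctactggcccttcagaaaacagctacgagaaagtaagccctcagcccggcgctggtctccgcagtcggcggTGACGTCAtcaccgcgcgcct
Nupr1: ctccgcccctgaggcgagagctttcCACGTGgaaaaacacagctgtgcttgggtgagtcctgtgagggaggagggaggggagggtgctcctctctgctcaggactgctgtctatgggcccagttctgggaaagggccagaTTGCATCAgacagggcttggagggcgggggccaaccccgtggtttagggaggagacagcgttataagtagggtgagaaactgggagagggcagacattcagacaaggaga

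No motif was shared by all. Of 32851 RefSeq promoter windows of the same length, 6.02% held CACGTG, 3.74% the NRF1-type motif, 3.45% TGATGNAA and 1.55% TGACGTCA. The GC box GGGCGG was in 5 of the 7 promoters and in 32.7% of all windows, CCAAT was in 3 and in 33.8%, and CCGGAAG, the core bound by ETS factors, was in 2 (Mtg2 and Prmt2) and in 6.91%. TATAAA was found in Prmt2 and in 12.4% of all windows, and the antioxidant response core TGANNNNGC in 0 of the 7 and in 35.2%. The 19 matches of these motifs in the 7 windows did not share bases between motifs. These matches describe letters in a window, and GENCODE also lists transcripts of Coa3 and Nupr1 that begin further upstream. The outermost GENCODE starts of Coa3, Snapc5 and Mtg2 lie inside the printed windows. The CACGTG of Coa3 lies after that start of its gene, and the TGACGTCA of Snapc5 just after that of its own.

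All 8 genes were lower in microglia-like cells of the anesthesia library, by 2.46- to 2.88-fold, which is what they were picked for. Levels are given as CPM, the UMIs of a gene per 1000000 UMIs of the cells. Nupr1 had 5058 awake UMIs, or 105.8 CPM (103 to 109), and 2371 anesthesia UMIs, or 42.3 CPM (40.6 to 44.0). Fbxw4 had 67.4 CPM awake (65.1 to 69.8) and 25.5 CPM under anesthesia (24.2 to 26.9). Coa3 had 65.7 CPM awake (63.5 to 68.1) and 22.8 CPM under anesthesia (21.6 to 24.1).

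Tmem273 had 61.4 CPM awake (59.2 to 63.6) and 24.9 CPM under anesthesia (23.7 to 26.3). Snapc5 had 54.6 CPM awake (52.5 to 56.8) and 21.2 CPM under anesthesia (20.02 to 22.4). The 3 others were rarer. Mtg2 had 22.2 CPM awake (20.9 to 23.6) and 8.61 CPM under anesthesia (7.86 to 9.41). For Fam219b the levels were 21.9 CPM (20.6 to 23.2) and 7.93 CPM (7.21 to 8.703), and for Prmt2 21.8 CPM (20.5 to 23.1) and 8.80 CPM (8.04 to 9.62). A UMI tags 1 end of each molecule, so these levels are not divided by length. In order of level, Nupr1 stood above all others in both libraries. Neighbours whose intervals overlapped were Fbxw4 with Coa3 and Coa3 with Tmem273 among awake cells, and Fbxw4 with Tmem273, Tmem273 with Coa3 and Coa3 with Snapc5 among anesthesia cells. The intervals of Mtg2, Fam219b and Prmt2 overlapped in both.

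**Figure D1:**
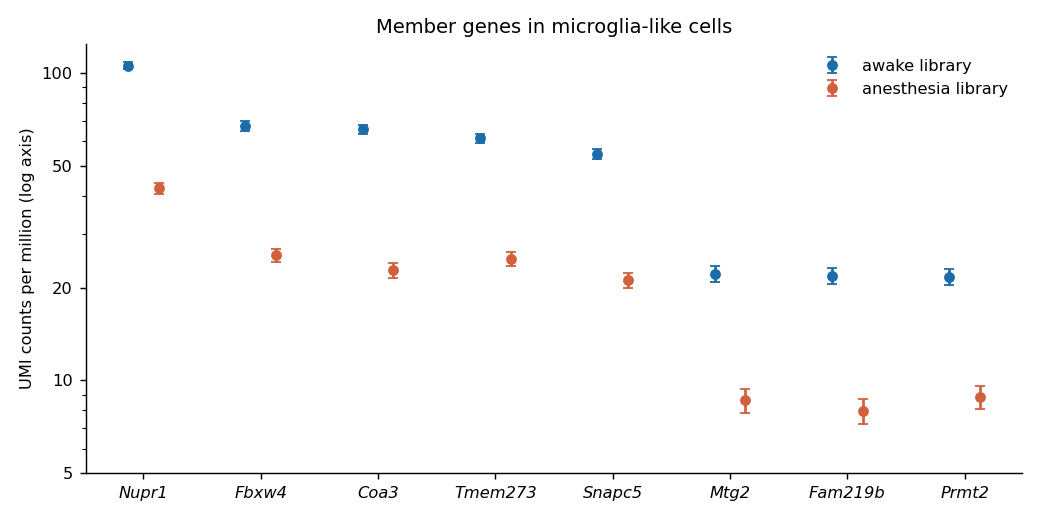
CPM (log axis) of the 8 genes in microglia-like cells of the awake (blue) and anesthesia (orange) libraries, 1 library each; bars are exact 95% Poisson intervals. Nupr1 is at 105.8 CPM awake and 42.3 CPM under anesthesia and Fam219b at 21.9 and 7.93 CPM.

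The log2 ratios, anesthesia over awake, lay close together. Coa3 was at -1.53 (-1.62 to -1.43), Fam219b at -1.46 (-1.63 to -1.30), Fbxw4 at -1.40 (-1.49 to -1.31), Mtg2 at -1.37 (-1.52 to -1.21) and Snapc5 at -1.36 (-1.46 to -1.27). Nupr1 was at -1.32 (-1.40 to -1.25), Prmt2 at -1.31 (-1.46 to -1.15) and Tmem273 at -1.30 (-1.39 to -1.21). Over 11384 genes with at least 200 UMIs the median was -0.02, and 2.73% of them were at least 2-fold lower in the anesthesia library, as all 8 were. Nothing is read from that count, since the ratio chose the genes. Lowest first, the 8 ranked from 40 (Coa3) to 96 (Tmem273) among the 11384 genes. A second ranking left out mitochondrially encoded, cytosolic ribosomal protein and hemoglobin genes and genes with Gm, Rik or accession names. In this clustering the 8 stood among the 13 lowest of the 5948 remaining genes with at least 20 CPM in the higher library. Tmem273 was the last of these, and Nop16, at -1.28 (-1.44 to -1.13), and Ppp1r35, at -1.28 (-1.41 to -1.14), stood next outside. The others within the 13 were Hist3h2a, Klf2, Srxn1, Mrpl14 and Mrpl34.

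A smaller share of cells of the anesthesia library held a UMI of each gene. With each cell thinned to 2000 UMIs, Nupr1 was seen in 16.1% (15.3 to 17.0) of 7273 awake and, at 607 cells, 7.50% (6.94 to 8.10) of 8093 anesthesia cells. Fbxw4 was seen in 12.9% (12.2 to 13.7) and 4.91% (4.45 to 5.40), Coa3 in 11.8% (11.02 to 12.5) and 4.09% (3.67 to 4.54), and Tmem273 in 11.6% (10.9 to 12.4) and 4.86% (4.40 to 5.35). Snapc5 was seen in 10.2% (9.54 to 10.9) and 4.23% (3.80 to 4.69). Mtg2, Fam219b and Prmt2 were seen in 4.52%, 4.39% and 4.32% of awake and 1.84%, 1.59% and 1.66% of anesthesia cells. These shares count the same UMIs as the ratio that chose the genes.

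Unthinned, the share for Coa3 was 34.1% awake (33.0 to 35.2) and 13.2% under anesthesia (12.5 to 13.9), for Nupr1 34.2% (33.1 to 35.3) and 18.8% (17.96 to 19.6), and for Fam219b 12.6% (11.9 to 13.4) and 4.94% (4.49 to 5.43). A cell that held a UMI of any gene other than Nupr1 held 1.06 to 1.27 of them on average. For those 7 genes the share of cells was close to what an even spread of the UMIs over cells by depth would give, for example 34.1% observed and 33.5% expected for Coa3 among awake cells and 13.2% and 13.7% among anesthesia cells. Their variance over cells was 0.961 to 1.13 times that of such a spread.

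Nupr1 was spread unevenly. By an even spread, 47.6% of awake cells and 23.3% of anesthesia cells would have held a UMI, and the observed shares were 34.2% and 18.8%. Its variance over cells was 2.50 times that of an even spread for awake and 1.61 times for anesthesia cells. Cells with at least 3 UMIs numbered 571 in the awake library, against 290 expected, and held 49.0% of its Nupr1 UMIs, and they numbered 180 in the anesthesia library, against 61.0 expected, and held 27.2%. The highest cell had 17 UMIs among awake and 9 among anesthesia cells. Tmem273 was uneven to a smaller extent. Cells with at least 3 of its UMIs numbered 105 awake, against 76.1 expected, and 30 anesthesia, against 16.8. For Coa3 they numbered 82 awake, against 90.9 expected, and 20 anesthesia, against 13.4.

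**Figure D2:**
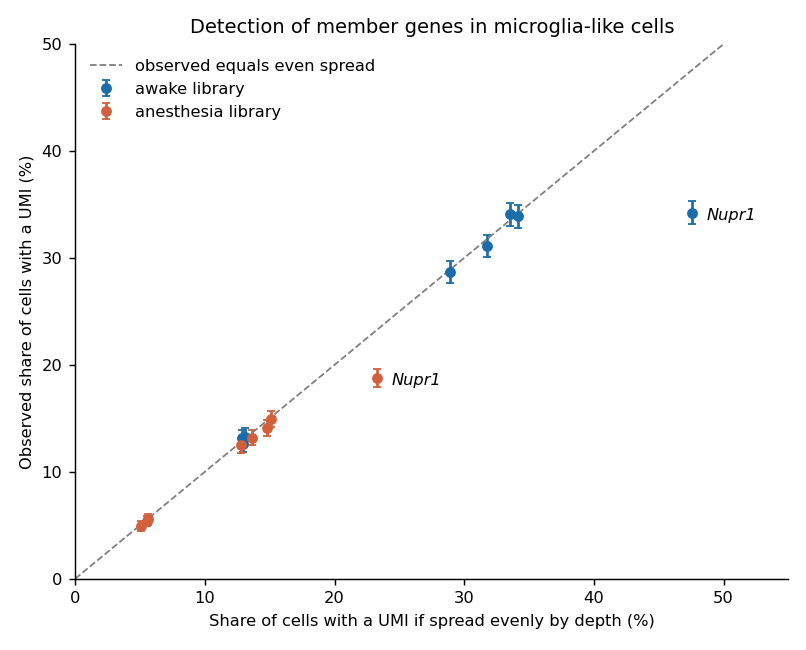
Observed share of microglia-like cells with a UMI (vertical axis, %, bars exact 95% binomial intervals) against the share expected if each gene's UMIs were spread by cell depth alone (horizontal axis, %), for the 8 genes in the awake (blue) and anesthesia (orange) libraries. Nupr1 lies below the dashed line of equality in both libraries, at 34.2% observed for 47.6% expected and at 18.8% for 23.3%, and the other 7 genes lie near it.

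Cells rich in Nupr1 (at least 3 UMIs) were set beside cells with none, within each library, a split chosen after the unevenness was seen. Mthfd2, a folate enzyme of mitochondria and a known ATF4 target, had 73.5 CPM in rich and 31.1 CPM in negative awake cells, a log2 ratio of 1.24 (lower bound 1.06), and for anesthesia cells it had 41.6 and 29.1 CPM, or 0.52 (lower bound 0.22). It was second when 3840 genes with at least 100 UMIs in rich and in negative cells of both libraries were ordered by the smaller of their 2 ratios, passing over the mitochondrially encoded genes and Gm42418 among them. First was Slc1a5, a glutamine transporter, at 0.52 (0.26 to 0.78) for awake and 0.53 (0.24 to 0.80) for anesthesia cells. The next 3 were the heat shock gene Hspa1b (0.38 and 0.46), Clic4 (0.56 and 0.33) and Phlda1 (0.33 and 0.39). Ordered for the lowest ratios in the same way, Agmo, an enzyme that cleaves ether lipids, came first at -0.37 (-0.61 to -0.14) and -0.38 (-0.68 to -0.10). Of the ATF4-linked list, 15 of 20 genes other than Nupr1 had at least 20 UMIs in the rich and in the negative cells of both libraries, and 2 of them, Mthfd2 and Slc3a2 (0.17 and 0.11), had intervals above 0 in both, against 1.23% of 8372 genes. An interval below 0 in both was found for 0 of the 15, against 0.454% of those genes. The median of the list was 0.17 for awake and 0.11 for anesthesia cells, beside -0.0065 and 0.02 over all these genes. Sesn2, a stress-induced regulator of mTORC1, was at 0.79 (lower bound 0.60) for awake and 0.23 (lower bound -0.03) for anesthesia cells. Atf4 RNA itself was at -0.01 and 0.07. Atf3, a stress-induced factor of the same family, went opposite ways, at 0.08 (0.04 to 0.11) for awake and -0.16 (-0.21 to -0.12) for anesthesia cells. Rich cells were deeper, with a median of 6721 against 5815 UMIs for awake and 9370 against 5290 for anesthesia cells, and they were spread unevenly over clusters. In the awake library they made up 5.89% of cluster 0, 9.23% of cluster 2 and 13.6% of cluster 4, and in the anesthesia library 3.48% of cluster 1 and 0.842% of cluster 3. The part of depth and of cluster in these ratios was not tested.

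The genes were seen together about as often as cell depth alone would give. Over the 28 pairs, the number of cells with both genes was a median of 1.02 times that expected from each gene alone within 10 depth bins in the awake library (0.931 to 1.16), and 1.05 times in the anesthesia library (0.818 to 1.27). More of the ratios lay above 1 than below it in both libraries. The count's interval lay above the expected value for 1 pair among awake and 2 among anesthesia cells and below it for 0 in both. No share over pairs of other genes is given beside these counts, so nothing is read from them. The awake pair was Fam219b and Snapc5, at 1.158 times expected (1.0395 to 1.287), and at 0.876 times among anesthesia cells. The anesthesia pairs were Coa3 with Snapc5 and Mtg2 with Fbxw4, the latter at 1.248 times (1.026 to 1.504), and at 0.981 times among awake cells. Coa3 and Snapc5 were found together in 801 awake cells (795 expected) and 210 anesthesia cells (182 expected), the latter with a ratio interval of 1.0017 to 1.32. Fbxw4 and Nupr1 were found together in 944 awake cells (921 expected) and 303 anesthesia cells (298 expected). A thinned awake cell held 0.76 of the 8 genes on average and an anesthesia cell 0.31. At least 1 of the 8 was seen in 55.2% of thinned awake and 26.9% of thinned anesthesia cells.

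The lower anesthesia level was present in every microglia-like cluster. The clusters were built without these 8 genes and were mostly of 1 library each: 3652 awake against 421 anesthesia cells in cluster 0, 2795 against 418 in cluster 2, 138 against 3876 in cluster 1 and 227 against 2374 in cluster 3. Of 56 log2 ratios (8 genes in 7 clusters) all 56 were below 0, from -2.63 to -0.47, and 51 had an interval below 0. Over all measured genes with at least 20 UMIs in a cluster, 51% of such ratios were below 0 and 14.9% had an interval below 0. Nothing is read from these counts, since the clusters divide the UMIs by which the genes were chosen. The 5 exceptions were Coa3 and Mtg2 in cluster 6, led by Clec7a, and Fam219b, Snapc5 and Prmt2 in cluster 8, led by interferon-induced genes, where the anesthesia library had 93 and 124 cells. The 138 awake cells of cluster 1 had 58.8 CPM of Coa3 (44.6 to 76.0), and the 3876 anesthesia cells beside them had 22.3 CPM. Tmem273 had 37.5 CPM (26.4 to 51.7) in those awake cells, below its level in awake cells of cluster 0, and its log2 ratio in cluster 1 was -0.67 (-1.15 to -0.16).

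The level also differed between clusters of the same library. Among awake cells, Nupr1 ranged from 82.1 CPM (66.8 to 99.7) in cluster 3 to 159 CPM (139 to 181) in cluster 4, which was led by Gadd45g and Plk2. Tmem273 had 69.1 CPM (65.6 to 72.8) in cluster 0 and 56.9 CPM (53.6 to 60.3) in cluster 2, the largest awake clusters, and 42.0 CPM (34.1 to 51.1) in cluster 6. Coa3 had 70.9 CPM (67.3 to 74.6) in cluster 0 and 61.6 CPM (58.2 to 65.1) in cluster 2. In the anesthesia library, Nupr1 had 45.2 CPM in cluster 1 and 34.3 CPM in cluster 3. By cell depth, all 40 ratios (8 genes in 5 depth classes) were below 0, from -2.24 to -0.82, and 39 had an interval below 0, beside 51.9% and 28.2% for measured genes with at least 20 UMIs in a depth class. The depth classes also divide the UMIs that chose the genes.

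**Figure D3:**
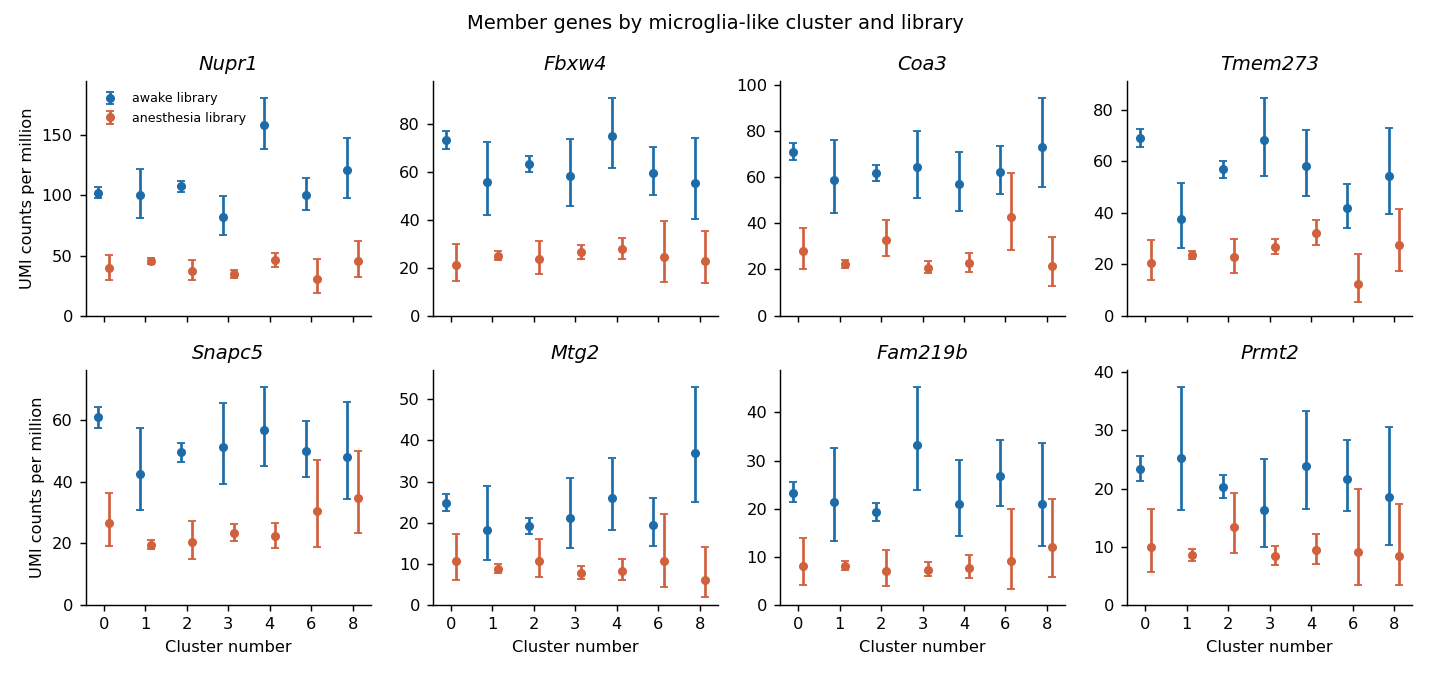
CPM of each gene (1 panel per gene) in the 7 microglia-like clusters of the awake (blue) and anesthesia (orange) libraries, with exact 95% Poisson intervals. In each cluster the awake point lies above the anesthesia point for all 8 genes, and Nupr1 is highest in awake cells of cluster 4, at 159 CPM.

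Cells of other classes lie outside the microglia-like sums given above, but they come from the same libraries. Whether the choice of the genes drew on any of them is not given in the sources used here. Endothelial-like cells, of the blood vessel wall, numbered 113 awake and 123 anesthesia, with medians of 5507 and 4535 UMIs, and held all 10 microglial markers as well, at 15.4% to 20.2% of the microglial level (awake) and 38.7% to 51.7% (anesthesia). Coa3 had 131 CPM in awake and 44.4 CPM in anesthesia endothelial-like cells, a log2 ratio of -1.57 with an interval below 0, from 92 and 37 UMIs. Snapc5 had 92.8 CPM and 45.6 CPM, a log2 ratio of -1.03 (-1.64 to -0.43), and Prmt2 25.7 CPM and 8.40 CPM, from 18 and 7 UMIs, a log2 ratio of -1.61 (-3.12 to -0.29). Fam219b had 38.5 CPM and 24.0 CPM, a log2 ratio of -0.68 (-1.60 to 0.20), and Mtg2 21.4 CPM and 16.8 CPM, a log2 ratio of -0.35 (-1.51 to 0.80). Among genes with at least 30 UMIs in these cells, 3 of 5 of the 8 (Coa3, Snapc5 and Fam219b) were at least 1.5-fold lower, beside 22.7% of 6618 genes, and 2 of 5 at least 2-fold lower, beside 8.72%. Of the same 5, Nupr1 was at least 1.5-fold higher, beside 19% of genes. An interval below 0 was found for 3 of the 8, beside 16.7% of 9887 genes with at least 10 UMIs.

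The levels of Fbxw4, Nupr1 and Tmem273 in awake endothelial-like cells were low beside those in microglia. Fbxw4 was at 17.1 CPM, 25.4% of its microglial level, from 12 UMIs, and Nupr1 at 17.1 CPM, 16.2%, within the range of the microglial markers. Tmem273 had 2 UMIs in 113 awake cells, 4.65% of its microglial level. After thinning, 2.83% of awake and 3.57% of anesthesia endothelial-like cells held Nupr1, and Tmem273 was in 0 of 106 awake cells, an interval that reaches 3.42%, while Tmem119, a microglial marker that endothelial cells lack, was seen in 19.8% and 29.5% of them. The part of microglial RNA in the awake signals of Nupr1 and Tmem273 in these cells was not tested. The anesthesia levels of Nupr1 and Tmem273 were 71.0% (45.9 to 105) and 57.7% (29.8 to 101) of the microglial level, from 25 and 12 UMIs. Both intervals reached into the range of the markers. The log2 ratio of Nupr1 in these cells was 0.81 (-0.24 to 1.94). It was at 1.58 (0.28 to 3.06) without cells over 10000 UMIs and at 1.54 (0.33 to 2.91) in cells with at most 5% mitochondrial UMIs. The Nupr1 UMIs of the whole class lay in 9 awake and 13 anesthesia cells. These intervals take each UMI as independent, so they are too narrow where a few cells hold several. Coa3 was at 200% of its microglial level in awake and 194% in anesthesia endothelial-like cells and seen in 25.5% and 15.2% of the thinned cells. Snapc5 was at 170% and 215%.

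Border-associated macrophage-like cells, macrophages of the brain's surfaces and vessels, numbered 95 awake and 62 anesthesia, with medians of 7894 and 11314 UMIs. Coa3 had 80.8 CPM in awake and 21.01 CPM in anesthesia cells of this class, a log2 ratio of -1.94 (-2.70 to -1.24), and Snapc5 69.7 CPM and 22.9 CPM, a log2 ratio of -1.60 (-2.35 to -0.91). Mtg2 was at -1.28 (-2.46 to -0.18) and Tmem273 at -1.02 (-1.89 to -0.19). Fbxw4 and Nupr1, with 31 and 29 and with 50 and 45 UMIs, were at -0.31 (-1.09 to 0.47) and -0.36 (-0.98 to 0.25). Of the 6 genes with at least 30 UMIs 4 were at least 1.5-fold lower, beside 14.2% of 6950 genes, and the same 4 at least 2-fold lower, beside 6.47%. At least 1.5-fold higher were 0 of the 6, beside 27.3% of genes. An interval below 0 was found for these 4 of the 8, beside 11.5% of 9932 genes with at least 10 UMIs. Without cells over 10000 UMIs, the intervals of Snapc5, at -2.29, and Tmem273, at -2.90, still lay below 0, beside 6.79% of genes with at least 10 UMIs. Fbxw4 was at -1.22 (-3.65 to 0.60), and the intervals of Coa3, at -1.43 (-3.42 to 0.12), and Mtg2, at -2.22 (-7.66 to 0.59), reached 0. The 10 microglial markers stood at 42.7% to 61.1% of their microglial level in awake and 79.8% to 97.5% in anesthesia cells of the class. The part of microglial RNA and of depth in these ratios was not tested. Nothing is read from the counts in this class, since cells so rich in microglial markers may have been among those that chose the genes.

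In the 41 awake and 84 anesthesia choroid plexus or ependymal-like cells, Coa3 had 183 CPM and 118 CPM, a log2 ratio of -0.63 (-1.15 to -0.11). Nupr1 was at -1.84 (-2.98 to -0.77), from 23 and 12 UMIs, and Prmt2 at -2.22 (-4.35 to -0.43), from 10 and 4. Of the 3 genes with at least 30 UMIs there (Coa3, Snapc5 and Nupr1) all 3 were at least 1.5-fold lower, beside 9.86% of 4301 genes, and 2 at least 2-fold lower, beside 2.33%, and 0 were at least 1.5-fold higher, beside 19.1%. Of the 7 genes with at least 10 UMIs, 3 (Coa3, Nupr1 and Prmt2) had an interval below 0, beside 5.08% of 8188 genes. Without cells over 10000 UMIs Coa3 was at -0.18 (-0.95 to 0.62) and Prmt2 at -1.60 (-5.18 to 1.52), and Nupr1 kept an interval below 0, beside 4.62% of genes with at least 10 UMIs. In cells with at most 5% mitochondrial UMIs, Coa3 was at -0.56 (-1.24 to 0.14). The 10 microglial markers stood at 22.7% to 40.3% of their microglial level in awake cells of the class. In anesthesia cells they stood at 44.4% to 52.2%, and their part in these ratios was not tested. Nupr1 was at 67.6% of its microglial level in awake and 47.3% in anesthesia cells of the class. Cluster 5, with 515 awake and 276 anesthesia cells, was left unnamed because Slc1a2 and Clu of the astrocyte markers led it while it held the microglial markers at 92.8% to 113% of the microglial level. There 7 of the 8 genes had an interval below 0, from -1.40 (-1.88 to -0.94) for Tmem273 to -1.11 (-1.55 to -0.68) for Fbxw4, and Mtg2 was at -0.63 (-1.38 to 0.08), beside 16.1% of 11908 genes with at least 10 UMIs whose interval lay below 0. Without cells over 10000 UMIs, Mtg2 was at -1.31 (-2.52 to -0.27) and Fam219b at -0.84 (-1.84 to 0.06). All 8 were at least 1.5-fold lower, beside 14.9% of 9393 genes, and 7 at least 2-fold lower, beside 4.75%, while 14.4% of those genes were at least 1.5-fold higher. Nothing is read from the counts in cluster 5, since cells so rich in microglial markers may have been among those that chose the genes.

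**Figure D4:**
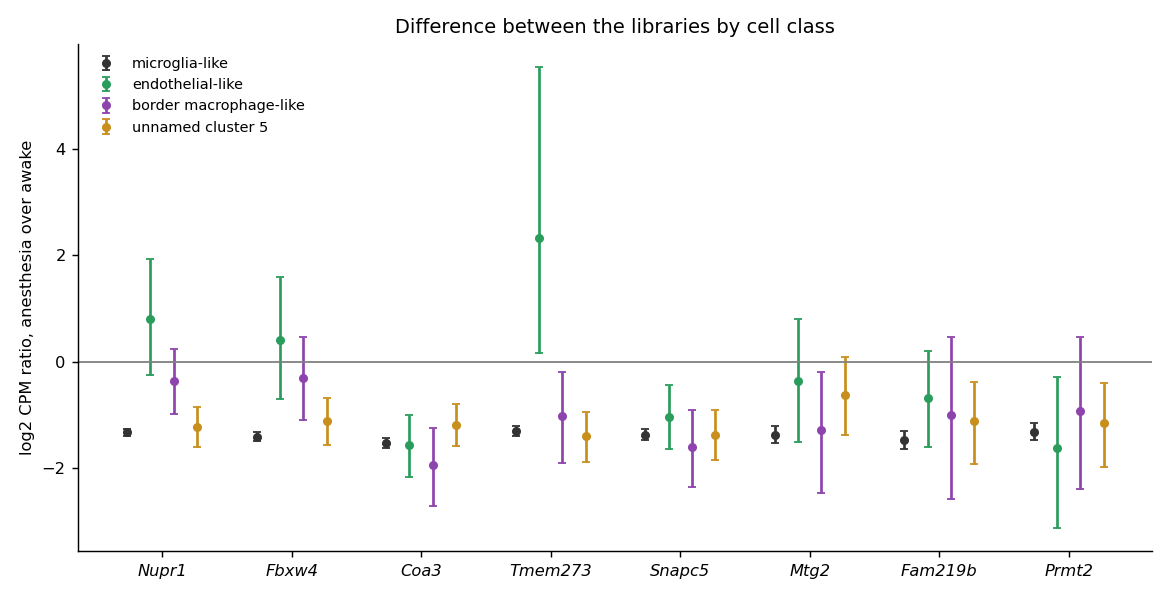
log2 ratio of CPM, anesthesia over awake, for each of the 8 genes in microglia-like (dark grey), endothelial-like (green), border-associated macrophage-like (purple) and unnamed cluster 5 (ochre) cells, with exact 95% intervals for counting error. Coa3 and Snapc5 lie below 0 in all of these, Coa3 at -1.57 in endothelial-like cells, while Nupr1, Fbxw4 and Tmem273 lie above 0 in endothelial-like cells, on few UMIs.

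Most genes on lists of related genes were less than 1.5-fold apart, as were most of all measured genes. Each of the 8 but Tmem273 was set beside a list of genes of the same pathway or family, with the 8 left out, and 16 of 89 measured genes on these lists were at least 1.5-fold lower and 7 higher, against 11.8% and 13.2% of all measured genes. The 12 other genes of small nuclear RNA transcription counted 0 past 1.5-fold in either direction, ranged from -0.54 to 0.50 and had a median of 0.15, which is -0.03 once the trend of GC and length is removed. The other subunits of SNAPc were at 0.08 (Snapc1), -0.35 (Snapc2), -0.31 (Snapc3) and 0.26 (Snapc4), while Snapc5 was at -1.36. Among 11 other F-box WD40 and SCF genes 0 were lower and 1 was higher, Skp1a, the core SCF subunit, at 0.94, and Fbxw2, Fbxw5 and Fbxw7 were at 0.01, -0.28 and 0.08. Fam219a, the paralog of Fam219b, was at -0.27 (-0.46 to -0.07).

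Of 20 other cytochrome c oxidase assembly genes 5 were lower and 2 higher past 1.5-fold, and the median was -0.21. Coa4, an assembly factor of the intermembrane space, had 312 awake and 95 anesthesia UMIs and a log2 ratio of -1.95 (-2.29 to -1.61), lower than Coa3 but under the level the ranking asked for. Coa6 was at -1.09, Cox19 and Cmc2 at -1.01 and Sco2, a copper chaperone, at -0.88, while Cox16 was at 0.82 and Pet100 at 0.76. Cox14, the partner of Coa3 on newly made COX1, was at -0.47. Of 21 other genes of mitochondrial ribosome assembly 5 were lower and 2 higher, and the median was -0.14. Tfb1m, a methyltransferase of mitochondrial ribosomal RNA, was at -1.34, the GTPases Noa1 and Mtg1 at -1.14 and -0.84, Rpusd4 at -0.92 and Ddx28 at -0.78, and Gtpbp10, another GTPase of the large subunit, at 0.74 and Mterf3 at 0.63.

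The protein arginine methyltransferase list had a median of -0.44 over 9 other genes, with 2 at least 1.5-fold lower, Prmt7 and the Prmt5 partner Wdr77, both at -0.61, and 0 higher. Prmt1, the main enzyme of the family, was at -0.27 and Prmt5 at -0.20. Of 15 other ATF4-linked genes 4 were lower and 2 higher, and the median was -0.07, or 0.10 once the trend of GC and length is removed. Slc7a11, the cystine transporter, was at -1.04, Cebpg at -0.71, Cebpb at -0.64 and Atf5 at -0.62, while Psat1, of serine synthesis, was at 0.93 and Slc7a5, an amino acid transporter, at 0.76. Atf4 was at -0.08 and Ddit3, which encodes the stress factor CHOP, at 0.02, beside -1.32 for Nupr1.

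The transcripts of the 8 genes were mostly short and rich in G and C. The longest protein-coding transcript was shorter than the median of measured genes (2968 bases) for 7 of the 8, from 829 bases for Nupr1 and 886 for Coa3 to 2100 for Prmt2, with Fam219b at 3017. GC content was above the median of 49.4% for 7 of the 8, up to 60.1% for Fbxw4, with Snapc5 at 44.1%. The 311 genes that were at least 2-fold lower had a median length of 2056 bases and a median GC content of 51.7%. In these libraries the ratio itself moved with GC content: 19.0% of genes in the fifth with the most GC and 6.28% in the fifth with the least were at least 1.5-fold lower, and a smooth trend of GC content and length held 10.8% of the variance of the ratios over genes. After that trend was taken off, the 8 genes were at -1.40 to -1.13, with Fam219b lowest and Nupr1 highest, and Snapc5 at -1.36.

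**Figure D5:**
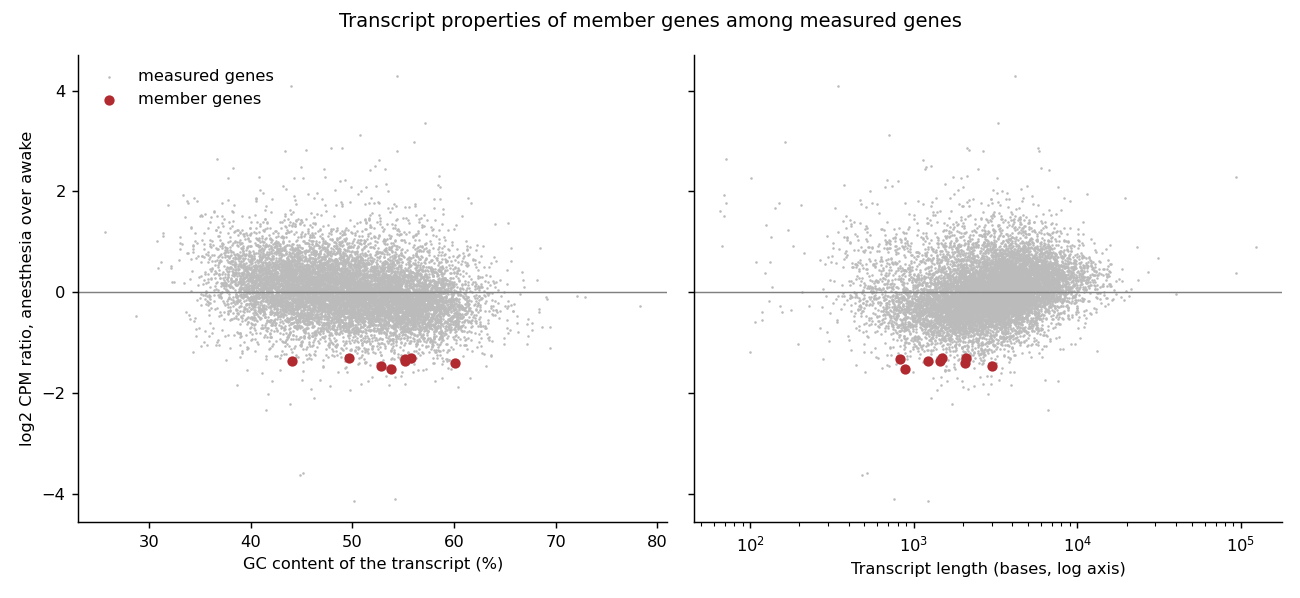
log2 ratio of CPM, anesthesia over awake, in microglia-like cells against GC content (left, %) and transcript length (right, bases, log axis) for 11384 measured genes (grey) and the 8 genes (red). The 8 genes lie between -1.53 and -1.30, at GC contents of 44.1% to 60.1% and lengths of 829 to 3017 bases.

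Genes with the most similar profile were sought over 8 profiles, 4 cell classes in each of 2 libraries, by Pearson correlation of log2(CPM + 1). The points share libraries and cells, and profiles from few cells are noisy, so the correlations are descriptions. Coa3 was most like Pde6d (r = 0.993), Mrps25 (0.985) and Timm13 (0.984), of which the last 2 encode proteins of the mitochondrial ribosome and of mitochondrial protein import. Snapc5 was most like Zcchc17 (0.995), Sec11a (0.993) and Mrpl58 (0.992). Fbxw4 was most like Nupr1 (0.972), the only one of the 8 among the 3 nearest of another. Nupr1 was nearest to Gm38042 (0.986) and Pik3r5 (0.980), Tmem273 to Anks6 (0.993) and the myeloid receptor gene Clec5a (0.989), Prmt2 to Ptcd2 (0.988) and Ppib (0.985), Mtg2 to Nr1h2 (0.984) and B230118H07Rik (0.976), and Fam219b to Agap3 (0.980) and Zfp189 (0.979).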

How the data were processed

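The deposited files hold raw UMI counts per gene and barcode for 2 libraries. The submitters' processing notes name bcl2fastq, Cell Ranger 3.1.0 and GRCm38, whereas the file headers name Cell Ranger 4.0.0. The cell calling by the authors is not given in the sources used here. Barcodes with at least 500 genes, 1000 UMIs and at most 10% mitochondrial UMIs were kept (8223 awake, 8944 anesthesia). They were clustered with scanpy 1.11.5 and leidenalg 0.10.2 (2000 variable genes, 30 components, 15 neighbours, resolution 0.6). Left out of the clustering were the 8 genes and mitochondrially encoded, cytosolic ribosomal protein, hemoglobin, early-response, cytokine and heat shock genes. Classes other than microglia needed 3 of their markers among the 10 leading genes and 3 in 25% of cells, and microglia-like clusters 7 markers in 25% of cells and at most 1 leading marker of another class, thresholds set after earlier results were known. Scrublet called 0 awake and 1 anesthesia doublet, which is too few for a working call, and all cells were kept.

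Counts were summed per class and library and scaled to CPM. Intervals are exact Poisson for CPM, exact conditional binomial for ratios and Clopper-Pearson for shares. Cells under 2000 UMIs, 186 of them awake and 306 anesthesia among microglia-like cells, were not thinned or used in thinned shares. Motifs were searched by exact letters. The ratio, thinning and co-detection steps were tested on simulated data. The 8 genes and the gene lists were chosen with earlier results of these data known. Named genes were the 8, list genes past 1.5-fold (up to 5 a list), close paralogs or partner subunits, and the 3 nearest profiles of each gene, of which 2 or 3 are given. Other list genes (Cox14, Prmt1, Atf3, Atf4, Ddit3, Sesn2) and the order used for genes of the Nupr1 split were chosen after their values were seen, as were the minimums of 20 and 10 UMIs behind the shares of genes with a ratio or interval below 0. No protein sequences were used here.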

Additional observations from a re-analysis of the deposited data

Results flagged for a closer look

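In 3 cases a gene was higher in the anesthesia library in endothelial-like cells while it was lower in microglia-like cells, and in 1 case in choroid plexus or ependymal-like cells. With 1 library per group the difference between classes was not tested. In endothelial-like cells, Nupr1 had a log2 ratio of 0.81 (-0.24 to 1.94), from 12 awake UMIs in 9 cells and 25 anesthesia UMIs in 13 cells. It was at 1.58 (0.28 to 3.06) without cells over 10000 UMIs and at 1.54 (0.33 to 2.91) in cells with at most 5% mitochondrial UMIs. Fbxw4 was at 0.41 (-0.71 to 1.59), from 12 and 19 UMIs. Tmem273 was at 2.33 (0.17 to 5.54), from 2 and 12 UMIs, at 0.06 (-6.23 to 6.36) without cells over 10000 UMIs and at 2.19 (-0.09 to 5.44) in cells with at most 5% mitochondrial UMIs. The 10 microglial markers in the same cells went from a median of 19.2% of their microglial level in the awake to 43.2% in the anesthesia library, and their part in these ratios was not tested. In choroid plexus or ependymal-like cells, Fbxw4 was at 0.76 (-0.62 to 2.37), from 6 and 19 UMIs, while the microglial markers went from a median of 35.0% to 47.5%.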

How the results depend on the processing

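Under 10 alternatives the log2 ratios of the 8 genes stayed between -1.56 and -1.07. Most alternatives used microglia-like cells, but some summed all deposited barcodes or all barcodes past the cell filter. All 8 genes were at least 1.5-fold lower under each alternative. Nothing is read from that count, since the alternatives mostly reuse the UMIs by which the genes were chosen. The median of the 8 ratios, -1.37, moved to -1.26 when ratios were taken within clusters and to -1.18 once the trend of GC and length was taken off. Without cells over 10000 UMIs the number of the 8 genes with an interval below 0 went from 4 to 2 in border-associated macrophage-like cells. The share of all genes with at least 10 UMIs went from 11.5% to 6.79% there. In choroid plexus or ependymal-like cells the number went from 3 to 1, beside 5.08% and 4.62%. Fewer UMIs and fewer of the 8 genes at 10 UMIs or more were left in both classes. With 1 depth bin the median co-detection in the anesthesia library was 1.36 times that expected, against 1.05 with 10 bins. Of all 11384 genes with at least 200 UMIs, 1345 were at least 1.5-fold lower, 311 at least 2-fold lower and 1505 at least 1.5-fold higher. At a minimum of 50 UMIs, 479 of 14266 genes were 2-fold lower and 2516 were 1.5-fold higher. With 1 UMI in each library, where rarer genes were let in, the 3 counts were 3369, 1545 and 5861 of 22571 genes. No paired analysis was possible because each group has 1 library and the labels give no shared numbers. Few UMIs limit the ratios in classes other than microglia.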
